A study of Carica papaya with 12 samples.

Results

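The genes described here are 200 Trinity genes whose transcript level in papaya fruit flesh differed between the yellow-fleshed ‘1B’ and the red-fleshed ‘RB1’ at both maturity stages. Between the stages, the log2 of their mean level plus 1 changed by less than 1 in each variety. At low levels the ratio between the stages can be larger than this. A Trinity gene is a set of transcripts that the assembler placed under 1 identifier, in which DN numbers a cluster of overlapping reads, c a component of it, g a gene and i an isoform. Levels were taken to be TPM, a transcript's share of all transcripts in its library corrected for length, scaled between libraries by trimmed mean of M values (TMM) factors and summed over isoforms, and L was the log2 of a group mean plus 1. A member had an absolute difference of L between ripe and unripe fruit below 1 in each variety. Its difference of L between ‘1B’ and ‘RB1’ was beyond 1 with the same sign at both stages. Of 75259 Trinity genes, 302 met this rule, and the members are the 100 of the 170 higher in ‘1B’ and the 100 of the 132 lower in ‘1B’ with the largest difference at the stage where it was smaller. The members were chosen by these variety and stage differences of L, which are therefore given as a description, with no p for a member.

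The 4 groups were ripe ‘1B’, unripe ‘1B’, ripe ‘RB1’ and unripe ‘RB1’, each with 3 fruits of 1 commercial harvest as biological replicates. Ripe and unripe refer to stages 3 and 1 of a harvest ripening index, and all fruits had the same fungicide treatment and storage before the flesh was cut. The study described ‘RB1’ with a sweet flavour and floral aroma and ‘1B’ with a bitter taste and musty aroma. It also cited sensory work that found more floral aroma in ‘1B’. Neither variety nor stage was separated from other differences between the trees. In whole flesh, fewer cells of a type and less RNA per cell cannot be told apart. RNA quality also differed between the groups. The RNA quality score was higher in every unripe ‘1B’ sample than in any sample of the other groups. RNA quality was thus not separated from stage within ‘1B’, or from variety in unripe fruit. Its effect on the choice of members was not tested. The identifiers carry no annotation other than the names in the study's list of sugar and flavour transcripts, so the flesh label was not checked against marker genes and nearly all members are known by identifier only.

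Papaya is a climacteric fruit, in which ethylene sets off ripening and the transcripts of enzymes for starch, sugars, cell walls, pigments and aroma change with it. Transcript levels can also differ between varieties at every stage, through differences in regulatory sequence, gene copies or the gene itself. In an assembly made without a genome, alleles or near copies of 1 gene can be placed under separate identifiers, and a read is then credited to the one it matches.

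Total counts ran from 54741315 to 60100478 in the ‘1B’ libraries and from 10949263 to 58163894 in the ‘RB1’ libraries. The shallowest were ‘RB1’ ripe replicate 2 and ‘RB1’ unripe replicate 1, which had 19359105. There, 3 counts are 0.274 and 0.155 CPM, counts relative to the library total, against at most 0.0548 CPM in the ‘1B’ libraries. ‘RB1’ ripe replicate 3 stood apart from the other ripe ‘RB1’ libraries, with a chi-square per gene of 429 to 499 against them, where other pairs of replicates gave 8.96 to 116. The study described an outlier among the ripe ‘RB1’ samples without naming the replicate, and the rule left out replicate 3. It is therefore the only library whose values did not choose the members, and its values are shown beside the others throughout.

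The rule picked a small share of the transcriptome. Of the 17987 Trinity genes with a group mean of at least 1 TPM, 1.68% met it. A difference beyond 1 with the same sign at both stages was present in 549 genes, 291 higher and 258 lower in ‘1B’, and 247 of them were not stage-stable. The members were not the genes with the largest variety differences. Among genes higher in ‘1B’, 88 that were not stage-stable had a smaller-stage difference at least as large as the last member's, and among genes lower in ‘1B’ there were 109. At the limit of the lists, the last member had a difference of 1.205 and the next gene outside 1.192 among genes higher in ‘1B’, and 1.1120 against 1.1119 among genes lower in ‘1B’. The largest stage difference of a member was 0.98 and 0.99 in the 2 lists, and the smallest among the genes kept out for it was 1.00 and 1.01.

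**Figure D1:**
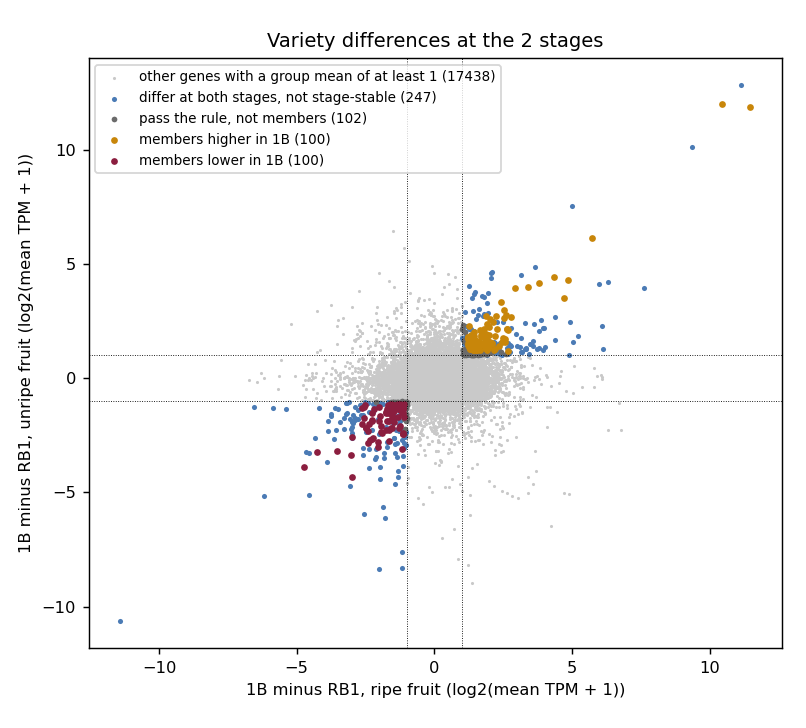
Difference of log2(mean TPM + 1) between ‘1B’ and ‘RB1’ in ripe fruit (horizontal) and unripe fruit (vertical), 1 point per Trinity gene with a group mean of at least 1, and dotted lines at 1 and -1. The 100 members higher in ‘1B’ and the 100 lower in ‘1B’ lie in opposite corners, among 247 genes that differed at both stages and were not stage-stable, several of which lie farther out.

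On the scale of L most differences were moderate. The 1 added before the logarithm makes a difference of L smaller than the log2 ratio, most of all at low levels. Only 53 members higher and 51 lower in ‘1B’ averaged at least 1 TPM in the variety where they were lower. In the members higher in ‘1B’ the median difference of L was 1.72 in ripe and 1.71 in unripe fruit, and 21 members were above 2 at both stages, 8 above 3 and 3 above 5. In the members lower in ‘1B’ the medians were -1.56 and -1.51, with 16 members beyond 2 at both stages, 4 beyond 3 and 0 beyond 4. The median mean level of the members higher in ‘1B’ was 6.72 TPM in ‘1B’ and 1.13 TPM in ‘RB1’. The median of the members lower in ‘1B’ was 1.06 TPM in ‘1B’ and 6.82 TPM in ‘RB1’. Few members were abundant: 6 members of each list averaged at least 100 TPM in the variety where they were higher, and 34 and 38 averaged at least 10 TPM.

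Replicate fruits lay close together beside these differences. The median coefficient of variation of the members higher in ‘1B’ was 10.9% in ripe ‘1B’ and 11.3% in unripe ‘1B’ (n = 3 each), and that of the members lower in ‘1B’ was 10.3% in ripe ‘RB1’ (n = 2) and 9.08% in unripe ‘RB1’ (n = 3). Over the 11 libraries of the rule, the ‘1B’ and ‘RB1’ values did not overlap in 99 members higher and 98 members lower in ‘1B’. The same held for 15.5% of the 17987 genes, and since the rule used these values nothing is read from the contrast. With ‘RB1’ ripe replicate 3 included, 98 and 92 members had no overlap. The gap between the lowest library of one variety and the highest of the other was first taken over the 11 libraries. Its median was 1.13 log2 units in the members higher in ‘1B’ and 1.00 in those lower in ‘1B’, and 61 and 50 members had a gap above 1. With ‘RB1’ ripe replicate 3 included, the medians were 1.04 and 0.84, and 53 and 34 members had a gap above 1. The share of all genes with such a gap was not computed, so nothing is read from these counts.

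**Figure D2:**
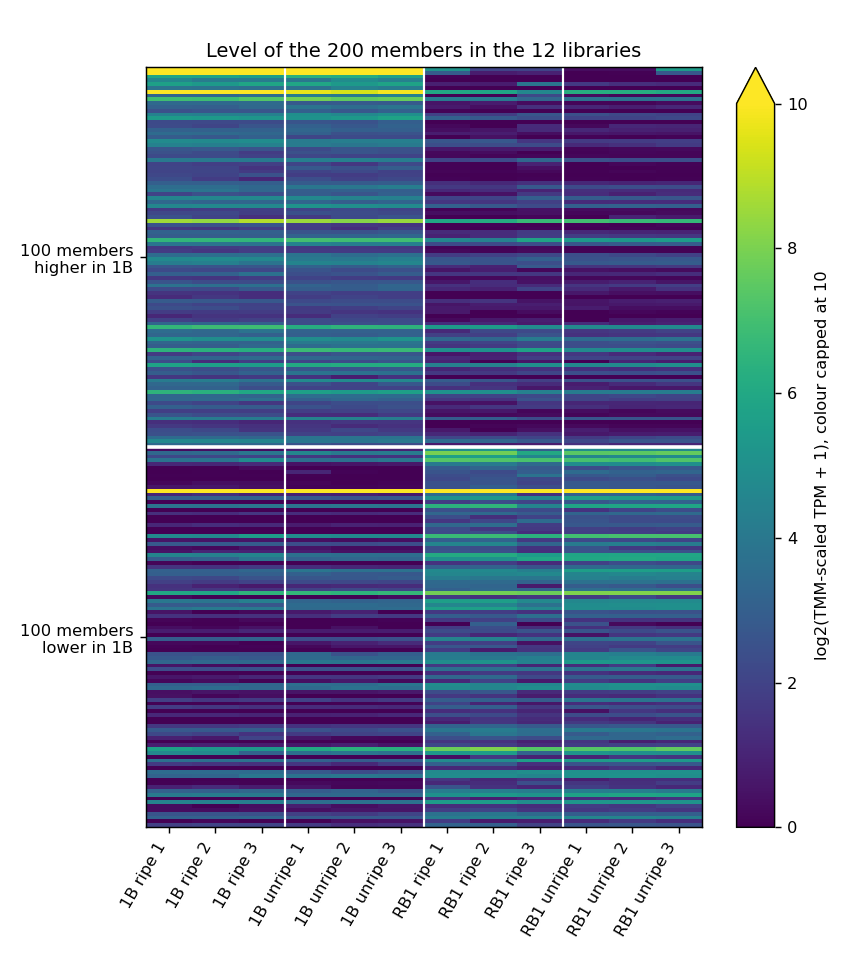
Level of each of the 200 members (1 line each, in order of the smaller variety difference within its list) in the 12 libraries (columns), as log2(TMM-scaled TPM + 1) with the colour scale capped at 10. The upper 100 lines are brighter in the 6 ‘1B’ columns and the lower 100 in the 6 ‘RB1’ columns, with ‘RB1’ ripe replicate 3 darker than its neighbours in many of the lower lines.

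Among members higher in ‘1B’, a pair of Trinity genes stood far above the rest. TRINITY_DN16477_c0_g1 had 63676, 53511 and 50589 TPM in ripe ‘1B’ replicates 1 to 3 and 59649.8, 56824 and 65861 TPM in unripe ‘1B’. In ‘RB1’ it had 34.4, 3.02 and 3.15 TPM in ripe fruit and 0.275, 0.274 and 45.7 TPM in unripe fruit, also in the order of replicates 1 to 3. Every ‘1B’ library was above every ‘RB1’ library, and within ‘RB1’ ripe replicate 1 and unripe replicate 3 were the high ones. The difference of L was 11.47 in ripe and 11.85 in unripe fruit, and with that stage's high ‘RB1’ library left out it was 13.76 in ripe and 15.54 in unripe fruit. As counts, the gene had 5293525 to 7241252 in each ‘1B’ library and 10 to 4833 in each ‘RB1’ library. It took 11.01 ± 1.32% of all counts in ripe ‘1B’ and 10.03 ± 0.33% in unripe ‘1B’ (SD, n = 3 each), where it was the Trinity gene of rank 2 by TPM in each ripe library and of rank 4 or 5 in each unripe one.

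TRINITY_DN6396_c0_g1 was the second of the pair. It had 7194, 6084 and 5938 TPM in ripe ‘1B’ and 12608, 10931 and 12746 TPM in unripe ‘1B’. Its ‘RB1’ levels were 6.47, 0.708 and 0.903 TPM in ripe fruit and 0.026, 0.053 and 5.67 TPM in unripe fruit. The same 2 ‘RB1’ libraries, ripe replicate 1 and unripe replicate 3, were again the high ones, and no ‘RB1’ library reached the ‘1B’ range. The difference of L was 10.45 in ripe and 12.02 in unripe fruit. In ‘RB1’ ripe replicate 1 the levels of the pair were 0.0616% and 0.101% of their ripe ‘1B’ means, and in unripe replicate 3 they were 0.0753% and 0.0469% of their unripe ‘1B’ means. In the other 4 ‘RB1’ libraries the shares were at most 0.0141%. Whether these reads belong to the ‘RB1’ fruits was not tested.

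The 2 genes differed in their stage pattern. TRINITY_DN16477_c0_g1 was 8.72 ± 0.18 times as abundant as TRINITY_DN6396_c0_g1 in ripe ‘1B’ and 5.03 ± 0.26 times in unripe ‘1B’ by TPM (SD, n = 3 each). TRINITY_DN6396_c0_g1 also changed its isoform while its sum stayed within the limit of the rule, at a ripe minus unripe difference of -0.92. Isoform i2 had 7192, 6082 and 5937 TPM in ripe ‘1B’ and 76.4, 99.4 and 102 TPM in unripe ‘1B’. Isoform i1 had 1.71, 2.00 and 1.23 TPM in ripe ‘1B’ and 12531, 10832 and 12644 TPM in unripe ‘1B’. One isoform thus made up at least 99.09% of the gene in every ‘1B’ library, a different one at each stage, so the stage-stable sum joined 2 isoforms that were not stage-stable.

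Together the pair took 13.7 ± 1.59% of the counts in ripe ‘1B’ and 14.3 ± 0.45% in unripe ‘1B’, against 0.0048 ± 0.0065% in ripe ‘RB1’ and 0.0035 ± 0.0060% in unripe ‘RB1’ (SD, n = 3 each, here with ripe ‘RB1’ replicate 3). The whole list higher in ‘1B’ took 8.34 ± 0.81% of TPM in ripe and 5.94 ± 0.05% in unripe ‘1B’, against 0.053 ± 0.005% and 0.045 ± 0.003% in ‘RB1’. Without the pair the other 98 members took 0.428 ± 0.018% in ripe and 0.209 ± 0.006% in unripe ‘1B’, against 0.051 ± 0.003% and 0.044 ± 0.005% in ‘RB1’. The list lower in ‘1B’ took 0.403 ± 0.036% and 0.316 ± 0.032% of TPM in ripe and unripe ‘1B’, against 1.90 ± 0.54% and 1.61 ± 0.08% in ‘RB1’.

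The only member with a name was TRINITY_DN31090_c0_g1, annotated by the study as aldehyde dehydrogenase family 3 member F1 and placed under glycolysis and gluconeogenesis. Aldehyde dehydrogenases oxidise aldehydes to the corresponding acids with NAD or NADP. The gene had 2.111, 1.95 and 2.43 TPM in ripe ‘1B’ and 3.00, 2.49 and 2.25 TPM in unripe ‘1B’. The ‘RB1’ libraries had 0.180, 0.180 and 0.318 TPM in ripe fruit and 0.174, 0.145 and 0.120 TPM in unripe fruit. All 6 ‘1B’ libraries were above all 6 ‘RB1’ libraries, ‘RB1’ ripe replicate 3 included. These levels rest on 215 to 306 counts per library in ‘1B’ and 5 to 40 in ‘RB1’. The difference of L was 1.42 in ripe and 1.64 in unripe fruit, and the ripe minus unripe difference was -0.18 in ‘1B’ and 0.04 in ‘RB1’. It ranked 56 among the members higher in ‘1B’.

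The study's sugar and flavour list held 77 Trinity genes, each with a group mean of at least 1 TPM. Of these, 25 (32.5%) were stage-stable, beside 62.7% of the 17987 genes with such a mean. A difference beyond 1 with the same sign at both stages was present in 5 of the 77, beside 3.05% of the 17987, and the aldehyde dehydrogenase gene was the only one of the 77 with both properties, beside 1.68%. The study chose that list on these samples for a difference in ripe fruit, so nothing is read from these counts. The other 4, named after their values were seen, failed on stage. Mannan endo-1,4-beta-mannosidase 7, which cuts mannan in cell walls, differed by 2.28 in ripe and 2.48 in unripe fruit, and its ripe minus unripe difference was -1.46 in ‘1B’ and -1.26 in ‘RB1’. Pyruvate, phosphate dikinase, which interconverts pyruvate and phosphoenolpyruvate, was higher in ‘1B’ by 3.73 and 1.28, and its ripe minus unripe difference was 2.74 in ‘1B’. Cytosolic acetyl-CoA acetyltransferase 1-like, the first enzyme of the mevalonate pathway, was lower in ‘1B’ by differences of -2.38 and -3.95, with a ripe minus unripe difference of 3.05 in ‘1B’. Probable trehalose-phosphate phosphatase D, which makes trehalose from its phosphate, was lower in ‘1B’ by differences of -1.12 and -3.83, with a ripe minus unripe difference of 3.91 in ‘1B’.

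By pathway, the stage-stable genes of that list were 9 of 24 in glycolysis and gluconeogenesis, 5 of 26 in starch and sucrose metabolism, 4 of 12 in fatty acid biosynthesis and 5 of 11 in terpenoid backbone biosynthesis. Over the 17987 genes with a group mean of at least 1 TPM the share was 62.7%, and nothing is read from these counts either. Members shared a read cluster, though not a component, with 2 further genes of the list, and both members were chosen for mention after their values were seen. TRINITY_DN1831_c2_g1, ranked 7 among those higher in ‘1B’, shared one with long chain acyl-CoA synthetase 2, an enzyme that activates fatty acids to their CoA esters. It had 1549, 1522 and 1680.5 TPM in ripe ‘1B’ and 820.4, 671 and 928 TPM in unripe ‘1B’. In ‘RB1’ it had 62.9, 57.8 and 23.6 TPM in ripe and 74.99, 73.2 and 63.9 TPM in unripe fruit, so the varieties did not overlap. Its ripe minus unripe difference of 0.97 in ‘1B’ was close to the limit of the rule. TRINITY_DN619_c1_g1, the last of the 100 members lower in ‘1B’, shared one with a gene whose listed transcripts differ in annotation. The study matched them to a cell division cycle protein and to the synthase that starts the chloroplast route to terpenes. It placed both under terpenoid backbone biosynthesis. The member itself had 2.72, 3.19 and 3.05 TPM in ripe ‘1B’ and 2.26, 1.47 and 1.67 TPM in unripe ‘1B’. In ‘RB1’ it had 8.09, 7.16 and 2.88 TPM in ripe fruit and 5.13, 5.46 and 4.88 TPM in unripe fruit. ‘RB1’ ripe replicate 3 lay within the ripe ‘1B’ range, and the other 5 ‘RB1’ libraries were above all ‘1B’ libraries. Summed over the read cluster, the difference of L was 0.66 in ripe and 1.44 in unripe fruit, against -1.11 and -1.14 for the member alone.

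Among members lower in ‘1B’, TRINITY_DN652_c0_g1 had the largest difference at the stage where it was smaller. It had 0.211, 0.284 and 0.275 TPM in ripe ‘1B’ and 0.791, 0.787 and 0.875 TPM in unripe ‘1B’. Levels in ‘RB1’ were 29.96, 35.8 and 6.69 TPM in ripe fruit and 28.01, 25.1 and 25.5 TPM in unripe fruit. All ‘1B’ values were below 1 TPM and all ‘RB1’ values above 6, and ‘RB1’ ripe replicate 3 was the low one. The difference of L was -4.75 in ripe and -3.90 in unripe fruit.

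TRINITY_DN89_c0_g2 came second by that measure, at a higher level. It had 9.49, 9.86 and 14.5 TPM in ripe ‘1B’ and 22.7, 15.4 and 17.03 TPM in unripe ‘1B’. Its ‘RB1’ levels were 244, 228 and 64.8 TPM in ripe fruit and 171, 179 and 196 TPM in unripe fruit. The varieties did not overlap, and ‘RB1’ ripe replicate 3 was again the lowest ‘RB1’ library. The difference of L was -4.27 in ripe and -3.24 in unripe fruit. The most abundant member of the list, TRINITY_DN4021_c0_g1, was chosen for mention after its values were seen. It had 3094, 2558 and 2386 TPM in ripe ‘1B’ and 3863, 3328 and 3314 TPM in unripe ‘1B’. The ‘RB1’ libraries had 11610.0, 18677 and 14858 TPM in ripe fruit and 15197, 14908 and 16933 TPM in unripe fruit. The lowest ‘RB1’ library was thus above the highest ‘1B’ library, and here ‘RB1’ ripe replicate 3 lay between its 2 neighbours.

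**Figure D3:**
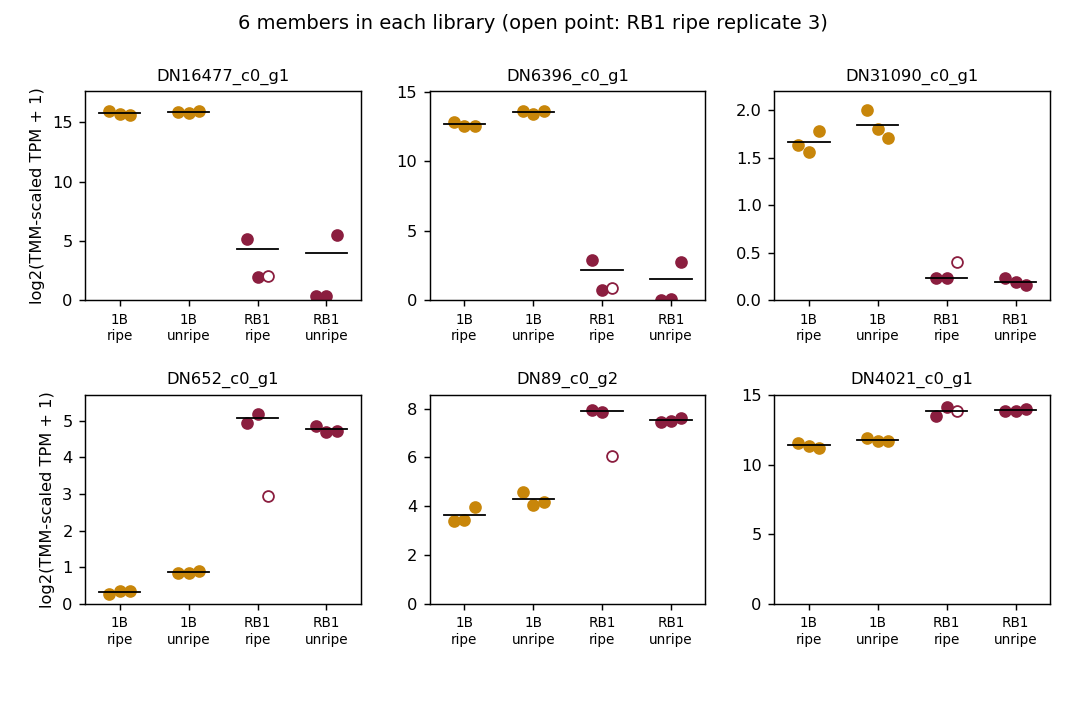
Level of 6 members in each library as log2(TMM-scaled TPM + 1), with replicates 1 to 3 from left to right in each group, the line at the log2 of the group mean plus 1 without ‘RB1’ ripe replicate 3, and that library as an open point. The 3 upper panels show members higher in ‘1B’ and the 3 lower panels members lower in ‘1B’; in TRINITY_DN652_c0_g1 and TRINITY_DN89_c0_g2 the open point lies between the varieties.

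Some members had no count at all in one variety. Of the members higher in ‘1B’, 6 had 0 counts in all 6 ‘RB1’ libraries, and of those lower in ‘1B’, 16 had 0 counts in all 6 ‘1B’ libraries. With a limit of under 3 counts in every library the numbers were 10 and 24. The libraries without a count summed to 244958636 counts in ‘RB1’ and 340820203 in ‘1B’. Most of these members were short and thinly covered. Their summed counts in the other variety were 106 to 577 (median 351) for the 6 and 18 to 1347 (median 181) for the 16. Their main isoform had a median effective length of 0.101 and 0.104 of that of the median transcript, as judged from the ratio of counts to TPM, against 0.780 and 0.639 for the other members of each list. A difference of L for them is set in part by the 1 that is added before the logarithm.

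Examples were chosen after the values were seen. TRINITY_DN24846_c0_g1 had 23.4, 16.7 and 17.03 TPM in ripe ‘1B’, 14.5, 27.98 and 20.1 TPM in unripe ‘1B’ and 0 in each ‘RB1’ library, from 63 to 128 counts per ‘1B’ library. A count of 0 in the shallowest ‘RB1’ library allows up to 3 counts there, which covers counting error only. TRINITY_DN7667_c1_g1 had 0 TPM in each ‘1B’ library. In ‘RB1’ it had 4.48, 3.98 and 3.73 TPM in ripe fruit and 1.78, 3.08 and 4.06 TPM in unripe fruit. It rested on 47 to 374 counts per ‘RB1’ library, the most of the 16 members at 0 in ‘1B’, and ‘RB1’ ripe replicate 3 was within the range of the others.

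‘RB1’ ripe replicate 3 gave the only values that the rule had not used, but the rule had used the values that this library is set against here. The members were chosen for a variety difference, while the shares over all genes take in differences of any size. Nothing is therefore read from the contrast between them. In ripe fruit the library was below all 3 ‘1B’ libraries for 99 of the 100 members higher in ‘1B’, as it was for 47.9% of all 73847 Trinity genes compared. It was above all 3 ‘1B’ libraries for 93 of the 100 members lower in ‘1B’, as it was for 16.1% of those genes. On the CPM scale the counts were 95 and 97, beside 35.7% and 28.8%. Its level was nearer to the mean of ripe ‘RB1’ replicates 1 and 2 than to the ripe ‘1B’ mean for 89 members higher and 75 lower in ‘1B’, on the log2(TPM + 1) scale. The same held for 61.2% of 11085 genes whose mean was higher, by any amount, in ripe ‘1B’ than in those replicates, and for 31.8% of 6877 genes whose mean was lower. On a scale with 0 at the ‘RB1’ mean and 1 at the ‘1B’ mean, its median place was 0.06 among members higher and 0.25 among members lower in ‘1B’.

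The library was outside the range of the other 5 ‘RB1’ libraries toward ‘1B’ in 93 of the 200 members, and by more than 1 log2 unit in 12. Each of the other 11 libraries was left out in turn, and 200 members were chosen again without it. It was outside the range of its own variety toward the other one in 22 to 70 of these, and by more than 1 log2 unit in 0 to 2. These counts are not fully on equal terms, since each was taken over its own choice of members. Replicate 3 and each ‘1B’ library were also set against 5 others, while each of the other ‘RB1’ libraries was set against 4. The 12 members included TRINITY_DN652_c0_g1 and TRINITY_DN89_c0_g2, the leading members lower in ‘1B’. TRINITY_DN180_c6_g1, ranked 5 among those higher in ‘1B’ and chosen after its values were seen, had 13.6 TPM there and 0.695 to 2.20 TPM in the other 5 ‘RB1’ libraries, against 41.8 to 60.01 TPM in the ‘1B’ libraries. TRINITY_DN274_c0_g1, lower in ‘1B’ and chosen in the same way, had 8.05 TPM there and 30.5 to 46.6 TPM in the other ‘RB1’ libraries, against 7.94 to 24.6 TPM in ‘1B’. That gene also varied in ripe ‘1B’, where replicate 3 had 7.94 TPM and the other 2 had 24.6 TPM each. What sets this library apart was not tested.

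**Figure D4:**
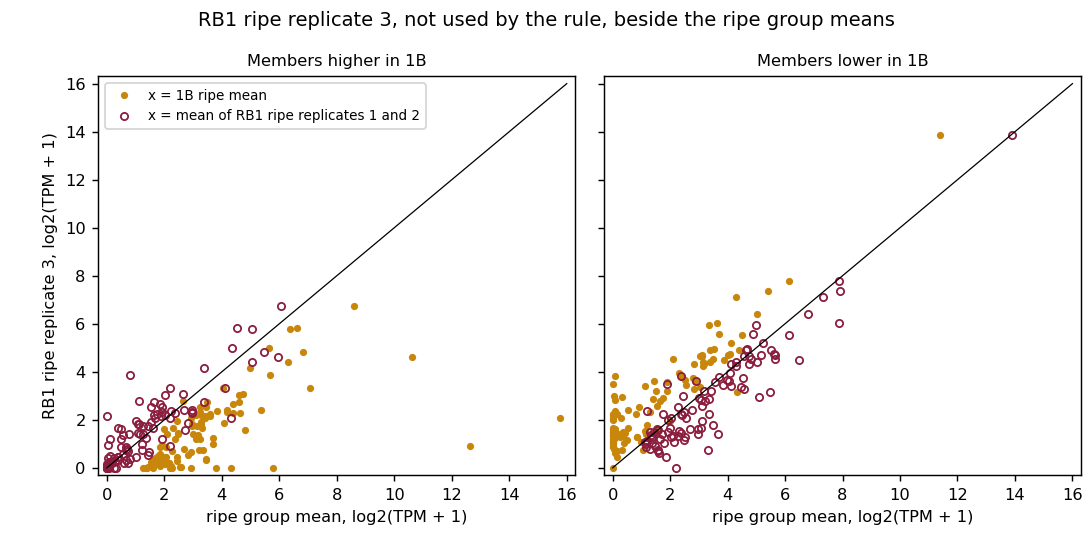
Level of each member in ‘RB1’ ripe replicate 3 (vertical) against its mean in ripe ‘1B’ (filled points) and in ripe ‘RB1’ replicates 1 and 2 (open points), all as log2(TPM + 1), with the line of equal values. The open points lie nearer to the line in 89 members higher and 75 members lower in ‘1B’, and in the second list they fall mostly below it, with a median difference of -0.38 between replicate 3 and the ‘RB1’ mean.

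Stage-stability depended on how the libraries were scaled. On the scale of the rule, the members higher in ‘1B’ had a ripe minus unripe difference in ‘1B’ of -0.92 to 0.98 with a median of -0.12, and 42 of them were higher in ripe fruit. Over the 17987 genes with a group mean of at least 1 TPM the median was 0.40. With TPM without TMM factors the members' median was 0.45, 90 of the 100 were higher in ripe ‘1B’ and 23 were beyond 1, beside a median of 0.86 over all genes. With CPM scaled by TMM factors the members' median was -0.64, 11 were higher in ripe ‘1B’ and 22 were beyond 1, beside a median of -0.01. With CPM by library size alone it was 0.07 and 56 were higher, beside 0.42. The sign of the members' median between the stages of ‘1B’ thus flipped with the scale. It was 0.35 to 0.62 below the median of all genes on the 4 scales, and since the rule held the members within 1 of 0 on one of them, nothing is read from that gap.

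The members lower in ‘1B’ moved less with the scale in ‘RB1’. Their ripe minus unripe difference in ‘RB1’ had a median of 0.05 on the scale of the rule, 0.40 with TPM without TMM factors, 0.08 with CPM scaled by TMM factors and 0.23 with CPM by library size. Beside them, the medians over all genes were -0.02, 0.23, 0.02 and 0.16. The variety differences kept their sign on every scale in all but 1 case, a member lower in ‘1B’ that was not lower in unripe fruit with CPM scaled by TMM factors. Their size depended on the scale. With CPM scaled by TMM factors 74 members higher and 69 lower in ‘1B’ were beyond 1 in ripe fruit and 90 and 62 in unripe fruit, with CPM by library size 85 and 70 in ripe and 84 and 68 in unripe fruit, and with TPM without TMM factors all 100 of each list at both stages.

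**Figure D5:**
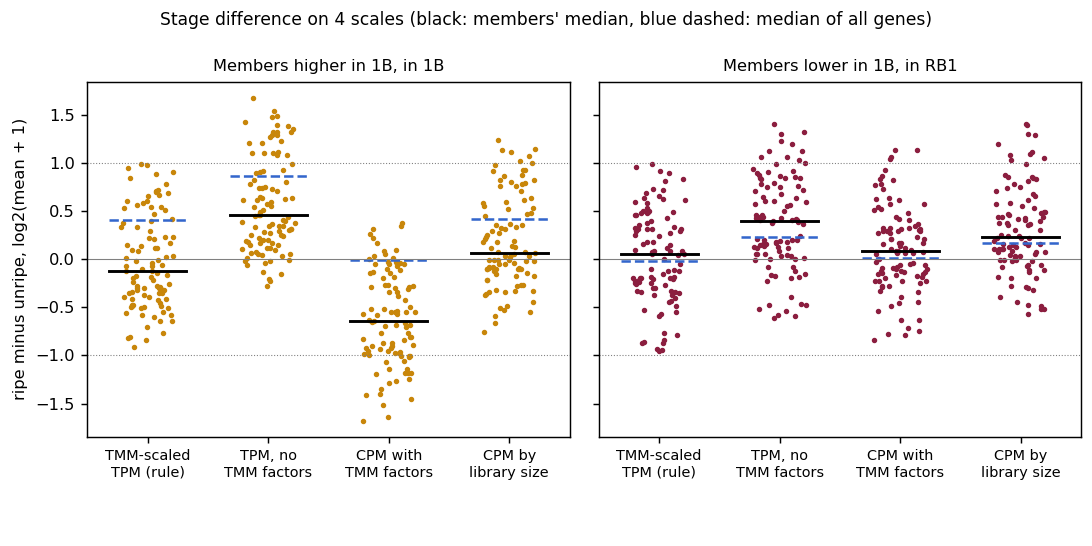
Ripe minus unripe difference of log2(mean + 1) of each member in the variety where it was higher, on 4 scales: the TMM-scaled TPM of the rule, TPM without TMM factors, CPM with TMM factors and CPM by library size. Black lines are the members' medians, dashed blue lines the medians of all 17987 genes and dotted lines the limits at 1 and -1; the members higher in ‘1B’ have medians of -0.12, 0.45, -0.64 and 0.07 in that order.

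The same contrasts were tested on gene-summed counts with edgeR's quasi-likelihood test, with Benjamini-Hochberg adjusted p-values taken across every Trinity gene in the fit and a call at an adjusted p under 0.05 and a log2 fold change beyond 1.5. In ripe fruit 71 of 100 members higher in ‘1B’ were called higher, beside 17.9% of all tested genes, and 92 of 96 tested members lower in ‘1B’ were called lower, beside 11.6%. In unripe fruit 96 of 98 were called higher, beside 7.85%, and 63 of 91 lower, beside 7.28%. The rule used these contrasts, so these counts only describe how the lists look on the count scale. Median log2 fold changes were 1.98 in ripe and 2.88 in unripe fruit for the members higher in ‘1B’, and -3.22 and -2.18 for those lower in ‘1B’. The median over all tested genes was 0.31 in ripe and -0.07 in unripe fruit. The members that could not be tested, 4 in ripe and 9 in unripe fruit among those lower in ‘1B’ and 2 in unripe fruit among those higher, did not pass the filter on low counts.

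The stage contrasts, which the rule also used, were tested on counts in the same way and are likewise only described. At an adjusted p under 0.05 and any fold, 79 of the 100 members higher in ‘1B’ were called in ‘1B’, 2 higher and 77 lower in ripe fruit, beside 66.9% of all tested genes. Their median log2 fold change was -0.96, and that of all tested genes was 0.22. In ‘RB1’, 49 of 99 members lower in ‘1B’ were called, 35 higher and 14 lower in ripe fruit, beside 51.8% of all tested genes. With ‘RB1’ ripe replicate 3 kept, edgeR called 0 of these members, beside 436 of all 24979 tested genes (1.75%), and 17 members had an unadjusted p under 0.05. DESeq2 then called 3 members, beside 2322 of 72350 genes (3.21%).

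Like the genes with a group mean of at least 1 TPM, members were more often the only gene of their component than not. Of the members, 31 higher and 38 lower in ‘1B’ shared a component with other Trinity genes, beside 40.6% of the 17987 genes with a group mean of at least 1 TPM. Summed over the component, 84 and 87 members kept a difference beyond 1 with the same sign at both stages. Of these, 69 and 62 were alone in the component, where the sum is the gene itself and could not differ. Among members with company, 15 of the 31 and 25 of the 38 kept it. Summed over the read cluster, 65 and 61 did, of which 45 and 34 were alone in it. A read cluster was shared by 55 and 66 members, beside 63.3% of the 17987 genes. Of these members, 20 and 27 kept the difference and 35 and 39 lost it. In shared components the difference was thus lost about as often as kept among the members higher in ‘1B’, and kept more often among those lower in ‘1B’. In shared read clusters it was lost more often than kept in both lists. What the neighbours in the other components did was not examined one by one.

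A neighbour in the same component with the opposite difference was present for 1 member higher and 2 lower in ‘1B’. TRINITY_DN12168_c0_g1 and TRINITY_DN12168_c0_g2, chosen here after their values were seen, were both members. TRINITY_DN12168_c0_g1 had 4.37, 4.04 and 5.21 TPM in ripe ‘1B’ and 5.25, 4.96 and 5.41 TPM in unripe ‘1B’. Levels in ‘RB1’ were 1.03, 1.45 and 1.69 TPM in ripe and 1.64, 1.45 and 1.59 TPM in unripe fruit. TRINITY_DN12168_c0_g2 had 0 TPM in all 6 ‘1B’ libraries and 1.89, 1.71 and 0.873 TPM in ripe and 1.92, 0.721 and 1.13 TPM in unripe ‘RB1’. The first was higher and the second lower in ‘1B’ in every library. The third case, TRINITY_DN2220_c0_g1, likewise chosen after its values were seen, was lower in ‘1B’, with 11.2 to 21.2 TPM in ‘1B’ and 28.96 to 45.7 TPM in ‘RB1’. Its neighbour TRINITY_DN2220_c0_g4 was higher there, with 1.601 to 6.23 TPM in ‘1B’ and 0.171 to 0.411 TPM in ‘RB1’. Whether such pairs are alleles of 1 gene was not tested.

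Isoforms were not used by the rule. Members had a median of 2 isoforms in each list, where genes with a group mean of at least 1 TPM had 4, and 32 members higher and 41 lower in ‘1B’ had a single isoform, beside 27.6% of those genes. Where a member had at least 2 isoforms and at least 1 TPM in both varieties, its main isoform was the same in ‘1B’ and ‘RB1’ in 32 of 41 (78.0%) higher and 33 of 42 (78.6%) lower in ‘1B’, beside 82.9% of 9856 genes. Between the stages the main isoform changed in 4 of 68 members higher in ‘1B’ in that variety (5.88%, beside 4.69% of 9105 genes) and in 2 of 59 members lower in ‘1B’ in ‘RB1’ (3.39%, beside 3.59% of 9195). These shares were close to those of all genes.

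One of those changes involved ‘RB1’ ripe replicate 3 and is given as an example chosen after its values were seen. TRINITY_DN923_c0_g2, ranked 5 among those lower in ‘1B’, had 1.19, 1.11 and 1.29 TPM in ripe ‘1B’ and 0.4, 0.464 and 0.567 TPM in unripe ‘1B’. In ‘RB1’ it had 15.8, 16.8 and 9.65 TPM in ripe fruit and 27.8, 27.8 and 31.4 TPM in unripe fruit. Its isoform i2 led in ripe ‘RB1’ replicates 1 and 2 with 9.44 and 9.21 TPM, against 0.153 to 0.5 TPM in unripe ‘RB1’. Isoform i1 led in unripe ‘RB1’ with 21.3 to 24.2 TPM. Ripe replicate 3 carried 0.645 TPM of i2 and 8.55 TPM of i1, so it had the main isoform of unripe fruit.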

How the data were processed

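RNA-Seq libraries of flesh from 3 fruits per variety and stage, 12 in all, were analysed from 2 deposited tables of 180368 transcripts. The authors trimmed reads with BBMap 38.34 and Trimmomatic 0.40 and also ran FastQC 0.11.9. They assembled both varieties together with Trinity 2.11.0 and no genome, and estimated expected counts per transcript with Salmon 1.5.2, deposited unnormalized. The deposited signal values were taken to be TPM from that run, scaled by the authors with TMM factors, from the table's name and its unequal column sums. Replicates were not pooled. Total counts were 10949263 to 60100478 per library, and 3 counts were 0.274 to 0.0499 CPM. Intervals and floors cover counting error only.

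Here both tables were summed per Trinity gene, and the rule was applied with a pseudocount of 1 to 11 libraries, without ‘RB1’ ripe replicate 3. The study described an outlier among these ripe samples without naming it. Rounded gene counts were tested in edgeR 4.0.16 (R 4.3.3; filterByExpr, TMM, quasi-likelihood test, Benjamini-Hochberg) on the groups compared. A call needed an adjusted p under 0.05 and, for variety, an absolute log2 fold change above 1.5. Both the rule and the test were checked on simulated data. Alternatives were pseudocounts of 0.1 and 5, a minimum of 10 counts in 2 libraries, other scalings, group medians, transcripts or components, DESeq2 1.42.0, limma 3.58.1 on log2(TPM + 1), RLE factors, no filter, a common fit, a replicate block, and each library left out.

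Members, lists and tests were chosen with earlier results of these data known. Named are members in the study's list of 118 transcripts, and the 2 of each direction with the largest smaller variety difference. The text marks any other identifier as picked once its level was known. Tables were handled with Python 3.11.15. Assembled sequences and annotation were not used here, so no sequence or coordinate is given.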

Additional observations from a re-analysis of the deposited data

How the results depend on the processing

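The number of genes that met the rule depended most on the pseudocount and on counting single transcripts, and the choice of the 100 members on the pseudocount and on the scale. With a pseudocount of 0.1, 1236 genes higher and 829 lower in ‘1B’ met the rule, and 41 and 33 of the members were chosen again; with 5 these were 44 and 48 genes, and 30 and 27 members. On CPM scaled by TMM factors 38 and 40 members were chosen again, and on CPM by library size, a setting added after the data were seen, 61 and 49. The median ripe minus unripe difference of the members higher in ‘1B’ in that variety, -0.12 on the scale of the rule, was -0.64 on CPM scaled by TMM factors and turned positive without TMM factors, at 0.45 on TPM and 0.067 on CPM. That of the members lower in ‘1B’ in ‘RB1’ was 0.40 on TPM without TMM factors and 0.05 on the scale of the rule. With ‘RB1’ ripe replicate 3 kept, 63 members lower in ‘1B’ were chosen again. Over single transcripts 494 and 529 met the rule. With a limit of under 3 counts in place of 0, 10 members higher in ‘1B’ met it in every ‘RB1’ library, beside 6 at 0. Among those lower in ‘1B’, 24 met it in every ‘1B’ library, beside 16 at 0. Limma called 54 members lower in ‘1B’ in ripe fruit, and the share of all genes it called was not computed. With a log2 fold change above 1.5 between stages, edgeR called 14 members in ‘1B’ and 0 in ‘RB1’. In ‘RB1’ 0 passed both at an unadjusted p under 0.05 and in DESeq2. With ‘RB1’ ripe replicate 3 kept, edgeR called 0 in ‘RB1’. The rule had limited the stage difference of L, so few such calls were to be found. The share of all tested genes at this fold was not computed. Nothing is therefore read from these counts. The variety differences of TRINITY_DN16477_c0_g1, TRINITY_DN6396_c0_g1, TRINITY_DN31090_c0_g1, TRINITY_DN652_c0_g1 and TRINITY_DN89_c0_g2, the members followed singly, kept their sign under each alternative tried. Of the counts and medians under all alternatives, 189 stayed within 1.5 times the main count or within the spread between replicates, 22 did not and 2 changed sign. Among the settings added after the data were seen, centring all fold changes on a median of 0 and the fits without the 2 most abundant members moved no count of calls by more than 1.5 times. The cause of the changes was not tested.

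Leaving out each library in turn, 162 to 177 genes higher and 122 to 140 lower in ‘1B’ met the rule, and 90 to 97 and 88 to 98 members were chosen again. EdgeR then called 61 to 77 and 69 to 93 members in ripe fruit, 97 to 98 and 62 to 68 in unripe fruit, and 74 to 82 in ‘1B’ and 39 to 50 in ‘RB1’ between the stages. The correlation of deviations of 10 same-numbered pairs of libraries was -0.12 to 0.06. Since each deviation rests on few libraries of a group, these values cannot decide whether the numbers pair the samples. With a replicate block, 71 and 91 members were called in ripe fruit, 96 and 63 in unripe fruit, 77 in ‘1B’ and 36 in ‘RB1’ between the stages. The shares of all genes called in these fits were not computed. The counts only describe how the calls on members changed with the setting. Depth limits mainly the members of few counts: 7 of those lower in ‘1B’ averaged under 10 counts in the ‘RB1’ libraries.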
